A study of Mus musculus with 24 samples.

Results

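The mitosis and cytokinesis genes are 44 genes, chosen by symbol, that build, check and divide the mitotic cell, out of 56691 genes in each of the deposited tables. All 44 were found in both tables and all 44 passed the filter on low values, which kept genes with an FPKM (a read count scaled to exonic length and library total) above 0 in at least 1 library. They were measured by bulk RNA sequencing in 24 libraries, 3 for each of 8 groups, from 2 kinds of mouse macrophage. RAW264.7 is a mouse macrophage cell line that divides in culture, and bone marrow-derived macrophages (BMDMs) are primary cells grown out of marrow. In each kind, wild-type (WT) cells and *Olfml3* knockout cells received PBS or lipopolysaccharide (LPS, the cell wall component of Gram-negative bacteria) at 100 ng/mL for 4 h.

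BMDMs came from 8-week-old male C57BL/6 mice, WT or *Olfml3*-/- made with CRISPR-Cas9, and were grown for 6 days with L929 cell supernatant, a source of M-CSF. The RAW264.7 knockout was made with lentiviral guide RNAs and single-cell cloning, so its cells descend from single sorted cells. The study calls its replicates biological, and no source used here says whether the 3 libraries of a group were separate cultures or mice, so p-values measure the spread between these libraries. In bulk RNA, fewer dividing cells and less of each mRNA per dividing cell cannot be told apart.

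Total counts were 11638273 to 16478616 in RAW264.7 and 17121240 to 22873094 in BMDMs. The targeted gene matched the labels in BMDMs, where *Olfml3* stood at 0.53 to 0.65 FPKM in WT and 0.01 to 0.03 FPKM in knockout under PBS. In RAW264.7 it went against them, at 0.15 to 0.19 FPKM in WT and 0.65 to 1.19 FPKM in the libraries labelled knockout under PBS, and at 0.13 to 0.29 FPKM against 18.3 to 18.9 FPKM under LPS. The mRNA thus does not bear out the label there. The paper reports Sanger sequencing of the clones and knockout at both alleles, which an mRNA level does not test. Directions in RAW264.7 are given for the libraries labelled knockout. The genotype tag contradicted the title in 12 of 24 libraries, and the titles were used.

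A dividing cell enters mitosis when cyclin B and Cdk1 become active, condenses its chromosomes with topoisomerase II and condensin, attaches them to the spindle through the kinetochore, and waits at the spindle checkpoint until all are attached. The anaphase-promoting complex with Cdc20 then removes securin and cyclin B, separase cuts cohesin, and the central spindle and the anillin-rich ring divide the cytoplasm. Most of these mRNAs peak in G2 and mitosis, and their summed level in a culture is widely used as a readout of how much of it is dividing. Macrophages grown in M-CSF still divide, and LPS is known to arrest them.

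In BMDMs most of the 44 genes stood higher in the knockout than in WT, 43 by sign under PBS and 42 under LPS. LPS lowered nearly all of the 44 in both genotypes. The mean log2(FPKM + 0.1) over the 44 genes was 2.74 ± 0.086 (SD, n = 3) in WT under PBS and 3.49 ± 0.062 in knockout under PBS. Under LPS it was 0.132 ± 0.063 in WT and 0.948 ± 0.038 in knockout. The ranges of the 4 groups did not overlap, with single libraries at 2.65 to 2.82, 3.43 to 3.55, 0.084 to 0.204 and 0.915 to 0.990 in the same order. In RAW264.7 the mean was 5.15 ± 0.012 in WT and 5.21 ± 0.098 in the libraries labelled knockout under PBS, and 4.51 ± 0.025 and 4.63 ± 0.0034 under LPS. The tables of the 2 cell types were made separately, so the higher level in the cell line is not tested.

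**Figure D1:**
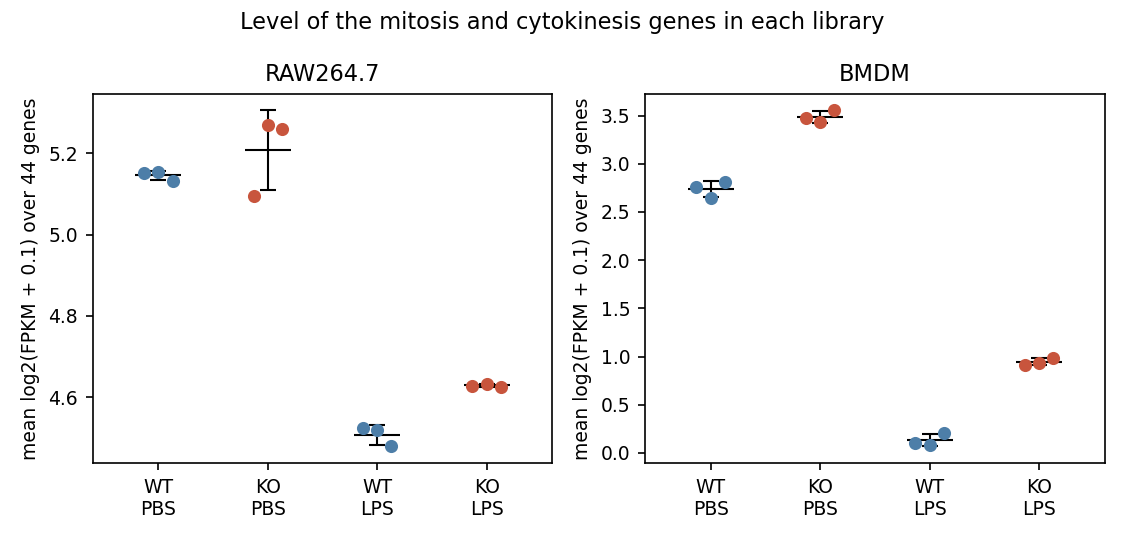
Mean log2(FPKM + 0.1) over the 44 genes (y axis, not starting at 0, with its own range in each panel) for each of 24 libraries by group (x axis). Points are libraries, long bars the mean and short bars the SD of 3 libraries. In RAW264.7, KO stands for the libraries labelled knockout. The BMDM groups do not overlap, and 1 RAW264.7 library labelled knockout lies at 5.09 while the other two lie at 5.27 and 5.26.

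A gene was called when its limma adjusted p (Benjamini-Hochberg over all genes of a table) was under 0.05 and its change was at least 1.5-fold. Between knockout and WT BMDMs under PBS, 38 of the 44 genes rose and 0 fell (1 was lower at an unadjusted p under 0.05, and edgeR called 0 lower). Of all genes tested 0.901% rose and 0.916% fell, and of the expressed genes, taken as those averaging 1 FPKM or more, 1.36% rose. The median log2 fold change of the 44 was 0.78, against 0.031 over the expressed genes. The 3 knockout libraries lay wholly above the 3 WT libraries for 43 genes and wholly below for 1, Pttg1, while 20.5% of all genes had groups that did not overlap. The 6 genes not called were Cdc20, Cenpa, Incenp, Ndc80, Pttg1 and Smc4.

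Under LPS, 34 of the 44 genes rose in the knockout and 0 fell (1 was lower at an unadjusted p under 0.05). Of all genes 3.23% rose and 1.53% fell, of expressed genes 5.94% rose, and the median log2 fold change was 0.87 against 0.14. With edgeR's scaling, which moved the split of all called genes from 872 higher and 413 lower to 632 and 647 (4.5% and 4.6%), 32 of the 44 rose and 0 fell. The libraries did not overlap for 41 genes, 40 of them higher, where 26.7% of all genes did not overlap. The genes that rose under PBS and under LPS shared 31 names, which is 81.6% of the first and 91.2% of the second. Only under PBS did Cdc25c, Cenpe, Kif15, Kif4, Mad2l1, Tpx2 and Ttk pass, and only under LPS did Cdc20, Incenp and Ndc80. Cenpa, Pttg1 and Smc4 passed in neither. Passing in 1 condition alone does not show a difference between conditions, which the interaction below tests.

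By role, the genes of mitotic entry (cyclins, Cdk1 and the entry kinases) rose in 7 of 7 cases under PBS and in 6 of 7 under LPS, and those of cytokinesis in 6 of 6 both times. The proliferation marker and chromosome structure genes rose in 6 of 7 both times, and those of the centromere and kinetochore in 4 of 6 both times. Checkpoint and anaphase genes rose in 6 of 8 and 5 of 8, and the chromosomal passenger complex in 2 of 3 and 3 of 3. Spindle motors and microtubule proteins rose in 7 of 7 under PBS and in 4 of 7 under LPS.

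**Figure D2:**
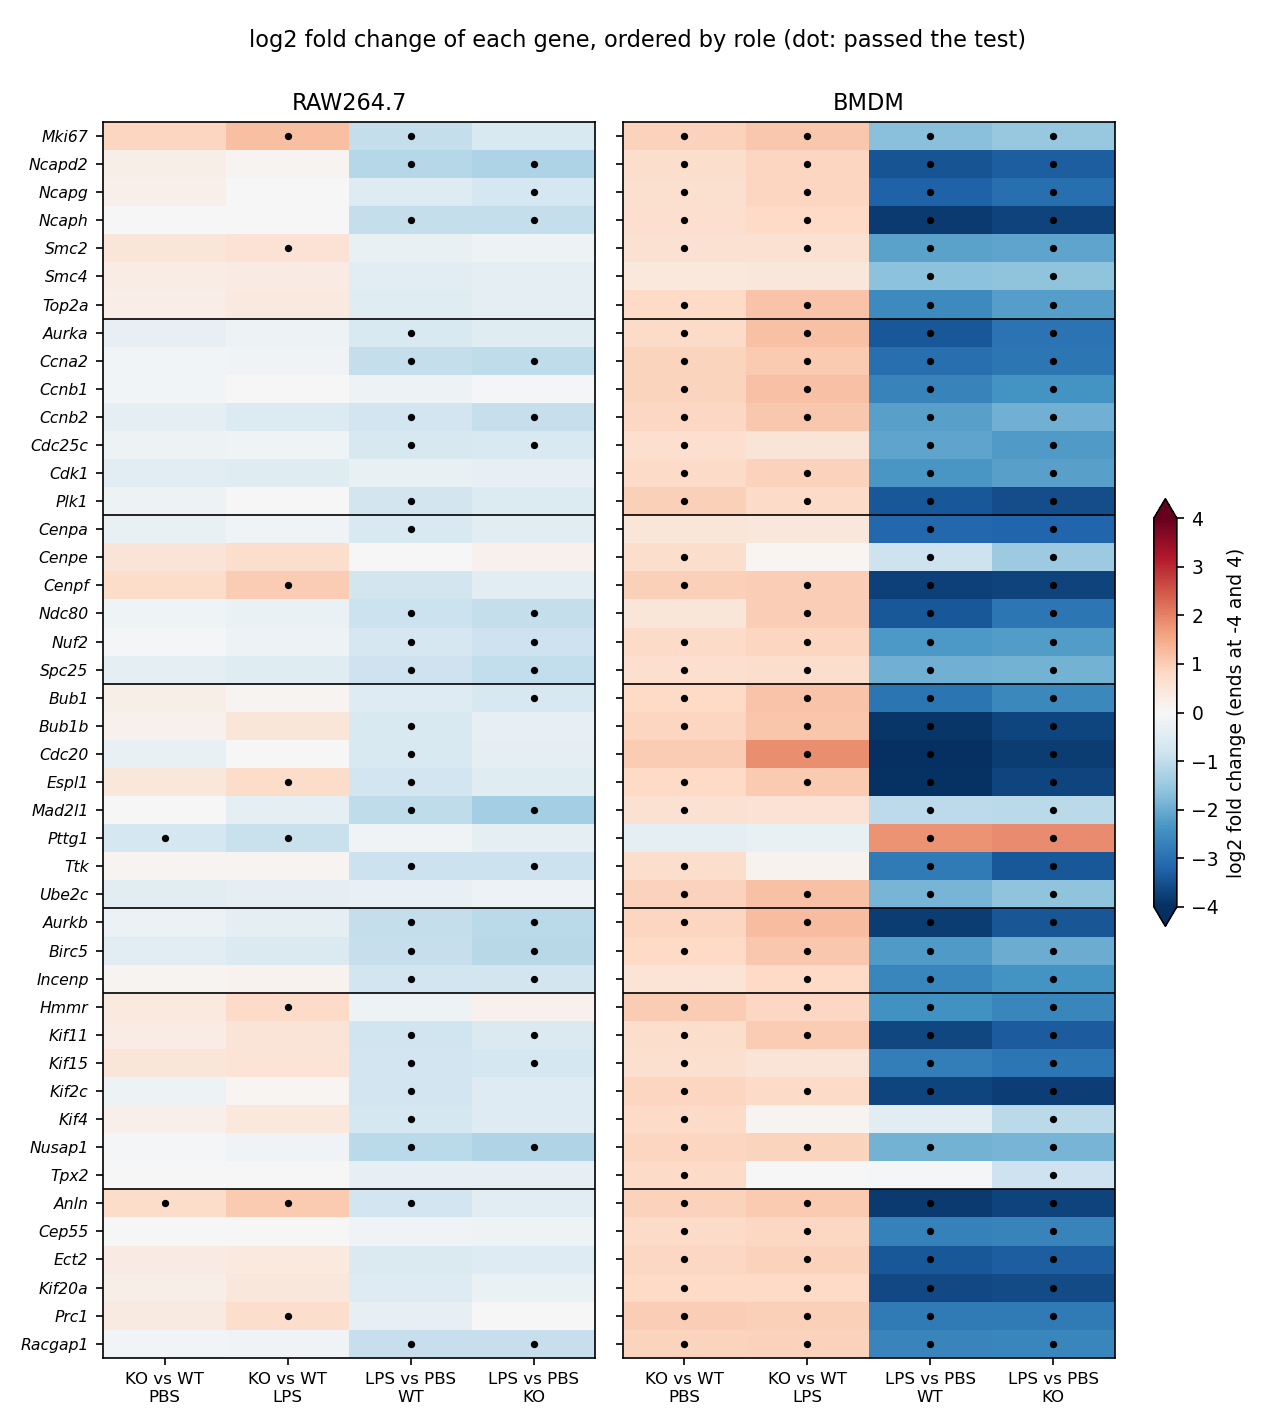
Log2 fold change (colour, from -4 to 4, darker ends standing for values beyond) of each of the 44 genes (rows, grouped by role and separated by lines) in 4 comparisons for each cell type (columns). A dot marks a gene that passed the limma test. In RAW264.7, KO stands for the libraries labelled knockout. The BMDM columns are nearly uniform, with Pttg1 as the 1 gene that LPS raised.

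Mki67 encodes Ki-67, the protein that coats mitotic chromosomes and the standard proliferation marker. Its WT libraries under PBS gave 26.93, 23.19 and 27.46 FPKM and the knockout libraries 47.78, 48.36 and 51.14 FPKM. Under LPS the WT libraries gave 6.55, 9.02 and 8.73 FPKM and the knockout libraries 16.96, 17.51 and 16.96 FPKM. Every knockout library lay above every WT library of the same treatment. The log2 fold change (± SE) of Mki67 was 0.93 ± 0.12 under PBS (limma adjusted p = 0.00156) and 1.09 ± 0.12 under LPS (limma adjusted p = 0.000232).

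Ccnb1, which encodes the cyclin B1 that activates Cdk1, gave 7.83, 7.16 and 8.19 FPKM in WT and 14.59, 14.58 and 14.46 FPKM in knockout under PBS. Under LPS it gave 0.90, 1.16 and 1.39 FPKM in WT and 2.73, 2.48 and 2.81 FPKM in knockout. The groups did not overlap, and the log2 difference was 0.91 ± 0.13 under PBS (limma adjusted p = 0.00304) and 1.17 ± 0.13 under LPS (limma adjusted p = 0.000248). Plk1, the polo kinase that drives entry and spindle assembly, was among the largest rises under PBS at 0.94 ± 0.14. Aurka, the spindle-pole kinase, was among the largest under LPS at 1.17 ± 0.087.

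Bub1b, a kinase-like protein of the spindle checkpoint, gave 7.55, 7.19 and 8.06 FPKM in WT and 13.17, 14.09 and 14.75 FPKM in knockout under PBS. Under LPS it gave 0.34, 0.37 and 0.56 FPKM against 0.97, 1.16 and 0.93 FPKM. Knockout was higher in every library both times, by 0.87 ± 0.14 under PBS (limma adjusted p = 0.00825) and 1.12 ± 0.14 under LPS (limma adjusted p = 0.000665). Ube2c, the ubiquitin-conjugating enzyme of the anaphase-promoting complex, rose by 1.18 ± 0.086 under LPS.

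Aurkb, the kinase of the chromosomal passenger complex that corrects kinetochore attachments, gave 6.65, 6.27 and 6.65 FPKM in WT and 11.92, 11.93 and 12.18 FPKM in knockout under PBS. Under LPS it gave 0.51, 0.29 and 0.35 FPKM against 0.99, 1.00 and 1.07 FPKM. Its log2 difference was 0.87 ± 0.13 under PBS (limma adjusted p = 0.00534) and 1.24 ± 0.13 under LPS (limma adjusted p = 0.000246), with no overlap.

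Kif11, the kinesin that pushes spindle poles apart, gave 6.74, 6.80 and 7.59 FPKM in WT and 11.81, 11.08 and 11.87 FPKM in knockout under PBS. Under LPS it gave 0.52, 0.43 and 0.48 FPKM against 1.08, 1.00 and 1.12 FPKM. Again no library overlapped, and the log2 difference was 0.71 ± 0.075 under PBS (limma adjusted p = 0.000549) and 1.02 ± 0.075 under LPS (limma adjusted p = 3.75e-05). Hmmr, a spindle microtubule protein, had the largest called rise under PBS. It gave 4.80, 4.46 and 4.86 FPKM in WT and 10.08, 9.31 and 9.55 FPKM in knockout, a log2 difference of 1.02 ± 0.063 (limma adjusted p = 1.2e-05).

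Anln encodes anillin, the scaffold of the contractile ring. It gave 5.19, 4.80 and 5.45 FPKM in WT and 9.35, 9.71 and 10.55 FPKM in knockout under PBS. Under LPS it gave 0.22, 0.31 and 0.29 FPKM against 0.56, 0.80 and 0.66 FPKM. The knockout was higher in all libraries, by 0.93 ± 0.13 under PBS (limma adjusted p = 0.00271) and 1.05 ± 0.13 under LPS (limma adjusted p = 0.00046). Prc1, which bundles the central spindle, rose by 0.99 ± 0.14 under PBS, and Cenpf, a large kinetochore protein, by 0.95 ± 0.12.

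Cdc20, the activator of the anaphase-promoting complex, showed the largest log2 difference under LPS and is the least certain. Its WT libraries gave 0.17, 0.02 and 0.36 FPKM and its knockout libraries 0.67, 0.66 and 1.13 FPKM. The groups did not overlap, but the lowest library rests on 1 count. The log2 difference was 1.86 ± 0.41 (limma adjusted p = 0.0108), and it did not pass when the compared groups were fitted alone (limma adjusted p = 0.092). Under PBS, Cdc20 gave 5.89, 5.99 and 6.42 FPKM in WT and 11.17, 12.26 and 13.82 FPKM in knockout, without overlap, yet the same wide standard error left it uncalled at 1.01 ± 0.41 (limma adjusted p = 0.277). Cdc20 also overlaps Elovl1 on the other strand, whose counts were 1030% of its own in BMDMs, and whether the counting used strand is not given in the sources used here.

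Other genes overlap neighbours with sizeable counts in BMDMs, and their values are uncertain for the same reason. The counts of the neighbour were 116% of those of Kif20a (Cdc23), 186% of Ncapg (Lcorl), 156% of Kif4 (Pdzd11), 62.2% of Ccna2 (Exosc9) and 23.3% of Nusap1 (Oip5).

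LPS lowered 41 of the 44 genes and raised 1 in WT BMDMs, where 32.5% of all genes and 55.5% of expressed genes fell and 7.94% of all genes rose. In knockout BMDMs it lowered 43 and raised 1, where 30.9% and 51.1% fell and 8.02% rose. The libraries did not overlap for 43 and 44 of the genes, where 52.2% and 52.1% of all genes did not overlap. The median log2 fold change of the 44 genes was -2.74 in WT and -2.64 in knockout, against -0.73 and -0.62 over the expressed genes. In WT under LPS, 24 of the 44 genes had a mean below 1 FPKM, against 1 under PBS.

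The size of these falls depends in part on the scaling. With edgeR's TMM scaling the median over expressed genes in WT moved to 0.033, and the split of all called genes from 2141 higher and 8758 lower to 3523 higher (25.1%) and 4342 lower (30.9%). In the knockout the split moved from 2162 and 8326 to 3362 (23.9%) and 4164 (29.6%). The 44 genes then gave 39 lower and 2 higher in WT and 40 lower and 1 higher in knockout, with median log2 fold changes of -2.20 and -2.11.

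In WT the largest falls were those of Cdc20 at -4.65 ± 0.41, Espl1 (separase) at -3.95 ± 0.089, Bub1b at -3.90 ± 0.14 and Ncaph (a condensin subunit) at -3.83 ± 0.082. Espl1 went from 2.13, 1.94 and 2.29 FPKM under PBS to 0.05, 0.04 and 0.04 FPKM under LPS in WT, with as few as 7 counts in a library. In knockout they were those of Cdc20 at -3.80 ± 0.41, Kif2c (a microtubule-depolymerising kinesin), Cenpf at -3.70 ± 0.12 and Anln at -3.70 ± 0.13. Each of these passed the limma test with libraries that did not overlap. Because several of these genes were near the pseudocount under LPS, their fold changes on the log2(FPKM + 0.1) scale understate the change.

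Pttg1 encodes securin, the inhibitor of separase that is destroyed at anaphase, and it moved against the other genes. Under PBS it gave 7.28, 6.81 and 6.79 FPKM in WT and 5.49, 5.12 and 5.10 FPKM in knockout. Under LPS it gave 27.22, 23.39 and 22.87 FPKM in WT and 19.65, 18.65 and 20.91 FPKM in knockout. LPS raised it without overlap by 1.80 ± 0.076 in WT (limma adjusted p = 1.77e-08) and 1.89 ± 0.076 in knockout (limma adjusted p = 1.42e-08). The knockout libraries lay below the WT libraries both times, but the log2 differences of -0.40 and -0.31 were under 1.5-fold.

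The effect of LPS differed between the genotypes for 3 genes by the interaction term, all of them falling further in the knockout, where 2.93% of all genes passed, 1.02% in that direction and 1.91% in the other. Tpx2 encodes the spindle assembly factor that activates Aurora A. Its WT libraries gave 11.39, 10.42 and 12.21 FPKM under PBS and 11.26, 10.62 and 11.25 FPKM under LPS. Its knockout libraries gave 18.40, 18.72 and 20.30 FPKM under PBS and 11.02, 11.38 and 10.07 FPKM under LPS. WT libraries of the 2 treatments overlapped, knockout libraries did not, and the difference in log2 response was -0.78 ± 0.10 (limma adjusted p = 0.00245).

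Kif4, a chromosome-bound kinesin of the central spindle, gave 3.90, 3.65 and 3.87 FPKM in WT under PBS and 2.45, 3.02 and 3.03 FPKM under LPS. Its knockout libraries gave 6.60, 6.06 and 6.86 FPKM under PBS and 3.01, 3.02 and 3.05 FPKM under LPS. The genotypes were apart under PBS and overlapped under LPS, with an interaction of -0.66 ± 0.12 (limma adjusted p = 0.011). Cenpe, the kinetochore motor that carries chromosomes to the spindle equator, went from 5.78, 5.03 and 6.03 FPKM to 2.86, 3.16 and 3.37 FPKM in WT. In knockout it went from 8.95, 8.82 and 9.91 FPKM to 3.27, 3.18 and 3.39 FPKM. Its genotypes overlapped under LPS as well, and the interaction was -0.64 ± 0.12 (limma adjusted p = 0.0138).

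The interaction of these 3 genes was negative under every scaling tried, but the direction of the LPS change in WT was not fixed by the data. In WT the log2 change of Tpx2 was -0.04 on FPKM and 0.73 with edgeR, that of Kif4 was -0.42 and 0.35, and that of Cenpe was -0.82 and -0.07. With edgeR the interaction was also called higher for Espl1 at 1.27, Cenpf at 0.63 and Ndc80 at 0.61, which did not pass with limma. edgeR and DESeq2 each called 3 genes higher and 3 lower, where edgeR called 3.14% and 2.54% of its genes and DESeq2 3.1% (383) and 2.68% (331) of the genes to which it gave an adjusted p, the base of every DESeq2 share here, against 514 and 275 with limma.

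**Figure D3:**
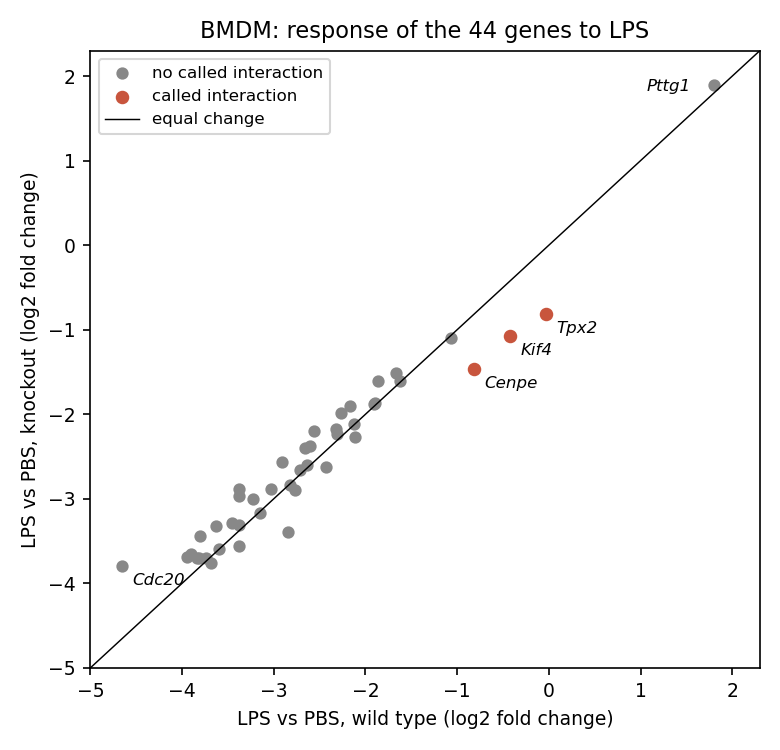
Log2 fold change of each of the 44 genes on LPS in knockout (y axis) against WT (x axis) BMDMs. Points are genes, the line marks an equal change, and red points passed the limma interaction test. Tpx2, Kif4 and Cenpe lie below the line, and Pttg1 alone lies in the upper right.

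The promoters of these genes are shown as a description. The genes were chosen by symbol, so the motif shares below are a property of the list and not a result of these libraries. Genes of G2 and mitosis are known to share a cell cycle homology region (CHR, TTTGAA), bound by DREAM and MuvB complexes, and CCAAT boxes, bound by NF-Y. In RefSeq promoters of GRCm38.p6, from 250 bases before to 50 after the start, 37 of the 44 genes had an entry, and Ccna2, Cdc25c, Smc4, Aurkb, Incenp, Tpx2 and Kif20a did not. Where a gene had several starts, the first listed was used and the others were not searched. On either strand, TTTGAA was in 28 of the 37 (75.7%, against 18.1% of all 27025 promoters) and CCAAT in 26 (70.3% against 37.9%). Both were in 23 (62.2% against 7.12%). The CHR variant TTTAAA was in 9 (24.3% against 13.2%) and an E2F site (TTTCGCG or TTTGGCG) in 3 (8.11% against 2.39%). Each motif was searched by itself, so overlapping matches count under each, and a match is a description, not a bound site.

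The 150 bases before the start are printed for the 6 genes with a promoter entry that passed in the most comparisons with the largest mean change (Anln, Espl1, Ncaph, Ncapd2, Kif11 and Racgap1), and for Cdc20 and Pttg1, chosen after their values were seen. Capitals mark matches to these motifs on either strand, so that ATTGG is a CCAAT box read on the other strand and TTCAAA is a CHR on it. In the order below they lie at chr9:22389207-22389356 (minus strand), chr15:102296143-102296292 (plus), chr2:127133955-127134104 (minus), chr6:125191587-125191736 (minus), chr19:37376232-37376381 (plus), chr15:99651657-99651806 (minus), chr4:118437344-118437493 (minus) and chr11:43425982-43426131 (minus).
Anln: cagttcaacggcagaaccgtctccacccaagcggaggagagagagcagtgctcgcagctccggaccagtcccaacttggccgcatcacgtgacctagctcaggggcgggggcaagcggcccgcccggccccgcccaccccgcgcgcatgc
Espl1: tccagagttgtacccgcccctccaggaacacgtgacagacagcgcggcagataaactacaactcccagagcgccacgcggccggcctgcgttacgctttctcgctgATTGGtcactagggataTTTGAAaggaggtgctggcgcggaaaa
Ncaph: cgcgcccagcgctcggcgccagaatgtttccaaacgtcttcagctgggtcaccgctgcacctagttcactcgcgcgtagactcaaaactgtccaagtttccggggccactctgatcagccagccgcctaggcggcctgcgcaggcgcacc
Ncapd2: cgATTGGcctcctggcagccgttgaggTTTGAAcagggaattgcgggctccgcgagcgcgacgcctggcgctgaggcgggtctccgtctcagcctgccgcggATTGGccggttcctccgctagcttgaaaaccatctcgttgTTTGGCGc
Kif11: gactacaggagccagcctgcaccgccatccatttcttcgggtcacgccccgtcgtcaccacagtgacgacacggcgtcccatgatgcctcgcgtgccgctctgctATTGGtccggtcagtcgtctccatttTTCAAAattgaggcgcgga
Racgap1: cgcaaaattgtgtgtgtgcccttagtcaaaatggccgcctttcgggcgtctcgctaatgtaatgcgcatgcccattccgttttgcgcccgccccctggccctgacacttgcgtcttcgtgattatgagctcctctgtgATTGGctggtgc
Cdc20: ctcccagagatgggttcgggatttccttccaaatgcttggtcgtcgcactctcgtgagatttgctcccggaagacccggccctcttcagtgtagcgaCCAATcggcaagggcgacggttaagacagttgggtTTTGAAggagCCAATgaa
Pttg1: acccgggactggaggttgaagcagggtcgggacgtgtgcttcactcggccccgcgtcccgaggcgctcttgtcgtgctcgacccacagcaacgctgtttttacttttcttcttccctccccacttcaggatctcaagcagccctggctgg

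Espl1 holds a CCAAT box at position -44 from the start and a CHR at -27, and Kif11 holds them at -45 and -19. Cdc20 holds CCAAT boxes at -53 and -8 with a CHR at -18. Ncapd2 holds its CHR farther out, at -123, with CCAAT boxes at -148 and -48 in the printed stretch and an E2F match at -8. Anln (22 and 29) and Racgap1 (6) have their CHR after the start, outside the printed stretch. Neither Ncaph nor Pttg1 holds TTTGAA or CCAAT in the window of the start used, and Ncaph fell on LPS in BMDMs while Pttg1 rose. Any other start of these genes was not searched, so a lack of these motifs in their promoters is not shown.

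Other cell cycle lists, chosen like the 44 genes with earlier results known and sharing no gene with them, differed in how many genes rose in knockout BMDMs, where 0.901% of all genes rose under PBS and 3.23% under LPS. Spindle and cytokinesis genes outside the 44 rose in the knockout in 16 of 25 cases under PBS and in 12 of 25 under LPS, with Kifc1, a spindle motor, at 1.31 under LPS. Kinetochore, centromere and checkpoint genes rose in 9 and 15 of 38, with Spc24 at 1.16 under LPS. Mitotic entry and Cdk1 control genes rose in 8 and 8 of 16 tested. DNA replication genes rose in 3 of 36 under PBS and in 16 of 36 under LPS, with Rrm2, the ribonucleotide reductase subunit, at 0.75 and 1.00. Cell cycle transcription factors rose in 2 and 4 of 19, among them Foxm1, an activator of G2 and mitosis genes, at 0.85 and 0.87.

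G1 cyclins, CDKs and inhibitors rose in 3 and 3 of 18, with the CDK inhibitor genes Cdkn2c (0.80) and Cdkn2d (0.71) among those under PBS and Myc (1.19) and Ccne1 (0.90) under LPS. Regulators and subunits of the anaphase-promoting complex rose in 0 and 1 of 17, and cohesin and condensin genes in 0 and 0 of 14. No gene of these lists fell between knockout and WT BMDMs. LPS lowered 25 of 25 spindle and cytokinesis genes in both genotypes and 35 of 36 DNA replication genes in both. It lowered 36 (WT) and 35 (knockout) of 38 kinetochore genes and 14 and 13 of 16 mitotic entry genes. Fewer fell among the anaphase-promoting complex genes (12 of 17 in both) and the cohesin and condensin genes (11 and 10 of 14). Of all genes 32.5% and 30.9% fell, and of expressed genes 55.5% and 51.1%. Among the transcription factors 15 of 19 fell and 2 rose in both genotypes. The G1 list was the most mixed, with 12 lower and 4 higher in WT and 13 lower and 3 higher in knockout. In it Ccnd2, the gene of the G1 cyclin D2, rose on LPS by 4.43 in WT and 4.60 in knockout on the log2 scale.

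Markers of other cells summed to far less than macrophage markers in BMDMs, and neutrophil markers had the highest sum among them. The summed FPKM of 8 myeloid progenitor markers was 0.86 to 1.10 in WT and 1.24 to 1.33 in knockout under PBS, and 0.29 to 0.34 and 0.63 to 0.83 under LPS, so that it was higher in the knockout both times. All 8 had a group mean below 1 FPKM, 0 of 8 were called under PBS and 1, Kit at 1.24, under LPS. The summed FPKM of 8 macrophage markers was 14852.8 to 15277.4 in WT and 16620.4 to 17811.0 in knockout under PBS, and 1 of 8, Fcgr1, was called lower. Summed neutrophil markers were 14.85 to 15.79 FPKM in WT and 13.80 to 15.57 FPKM in knockout under PBS. Of these 8 markers, 4 (Ly6g, Ltf, Camp and Cxcr2) stayed below 1 FPKM in all BMDM libraries, with Ly6g at 0. The others (S100a8, S100a9, Ngp and Mmp8) each reached 1 FPKM in at least 1 library. B cell markers summed to 0.99 to 1.42 and 1.19 to 1.73 FPKM and fibroblast markers to 1.08 to 1.41 and 1.22 to 1.44 FPKM. T and NK cell markers and mast cell and basophil markers summed to at most 0.33 FPKM, with Cd3e and Fcer1a at 0, and no gene of these 5 lists was called between genotypes. The part of any of these in the difference of the 44 genes was not tested.

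In RAW264.7 few of the 44 genes were called between the libraries labelled knockout and WT, where a call needs a change of at least 1.5-fold. Between the libraries labelled knockout and WT under PBS, 1 gene was higher (Anln) and 1 lower (Pttg1), where 4.79% of all genes were higher and 3.77% lower. edgeR and DESeq2 each called 3 higher and 1 lower, where 13.9% and 8.92% of genes were called by edgeR and 11.9% and 7.88% by DESeq2. The libraries did not overlap for 6 higher and 15 lower genes, where 24.1% of all genes did not overlap. That share includes many genes at low levels, so no excess is read from this count. Under LPS 7 genes were higher and 1 lower, where 9.73% of all genes were higher and 7.6% lower. The shares of the 44 were 15.9% higher and 2.27% lower, but all genes include many at low levels. In the fit on genes with at least 1 FPKM in 3 libraries, 8 of the 44 were higher and 1 lower. There 2028 of 12290 genes were higher and 1789 lower, so no excess of higher genes is read from the count. The libraries did not overlap for 21 higher and 15 lower genes, where 40.2% of all genes and 73.1% of expressed genes did not overlap. The median log2 fold change over the 44 was 0.02 and 0.01. The 7 higher under LPS were Mki67 (1.19 ± 0.30), Anln (1.04 ± 0.18), Cenpf (1.02 ± 0.28), Hmmr (0.78 ± 0.17), Espl1 (0.72 ± 0.15), Prc1 (0.71 ± 0.18) and Smc2, a condensin subunit (0.59 ± 0.19). Cenpf, Espl1, Prc1 and Smc2 no longer passed once the trend with exonic length described below was removed. All 7 were also called higher in knockout BMDMs under LPS, where 77.3% of the 44 were.

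Anln gave 19.66, 19.90 and 20.01 FPKM in WT and 23.07, 39.13 and 40.91 FPKM in the libraries labelled knockout under PBS, and 11.67, 11.60 and 11.99 against 24.30, 24.24 and 24.04 FPKM under LPS. It was apart both times, but 1 library under PBS lay close to WT (log2 difference 0.74 ± 0.18, limma adjusted p = 0.0307). Mki67 gave 66.21, 67.13 and 67.20 FPKM in WT and 65.36, 160.29 and 168.30 FPKM in the libraries labelled knockout under PBS. The same library lay below WT while the other two were far above, and Mki67 was not called there at 0.85 ± 0.30 (limma adjusted p = 0.0866). Under LPS, Mki67 gave 36.05, 33.86 and 34.12 FPKM against 77.78, 80.87 and 78.73 FPKM without overlap. Ccnb1 gave 57.14, 58.25 and 57.75 FPKM in WT and 55.45, 50.38 and 53.57 FPKM in the libraries labelled knockout under PBS. These lay just below WT without overlap and were not called (log2 difference -0.12 ± 0.069, limma adjusted p = 0.295).

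The first library labelled knockout under PBS stood apart from its group for these genes. Without it, 9 genes were higher (Mki67, Cenpf, Anln, Cenpe, Smc2, Kif15, Espl1, Hmmr and Prc1) and 2 lower (Pttg1 and Ube2c), with Mki67 at 1.30 and Pttg1 at -0.92. The calls over all genes also grew without it, to 12.7% higher and 8.11% lower. Of 7 macrophage markers tested, 4 were lower in the libraries labelled knockout under both treatments, and their part in these values was not tested. That library shared its low macrophage marker sum with its group, at 1420.13 FPKM against 1144.82 and 1175.77 FPKM in the others and 3343.53 to 3401.85 FPKM in WT.

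In RAW264.7 the log2 difference rose with exonic length. Across the 44 genes, Spearman's rho between exonic length and the log2 difference was 0.74 under PBS and 0.64 under LPS, and in BMDMs it was -0.10 and -0.15 (n = 44 genes of the same libraries, given as a description). Over all 11336 expressed genes of RAW264.7, the median log2 difference under PBS rose over 5 length classes of equal size through -0.27, -0.21, -0.04, 0.14 and 0.41. The 22 genes of the list with the shorter exons had a median of -0.16 and the 22 with the longer exons 0.31.

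**Figure D4:**
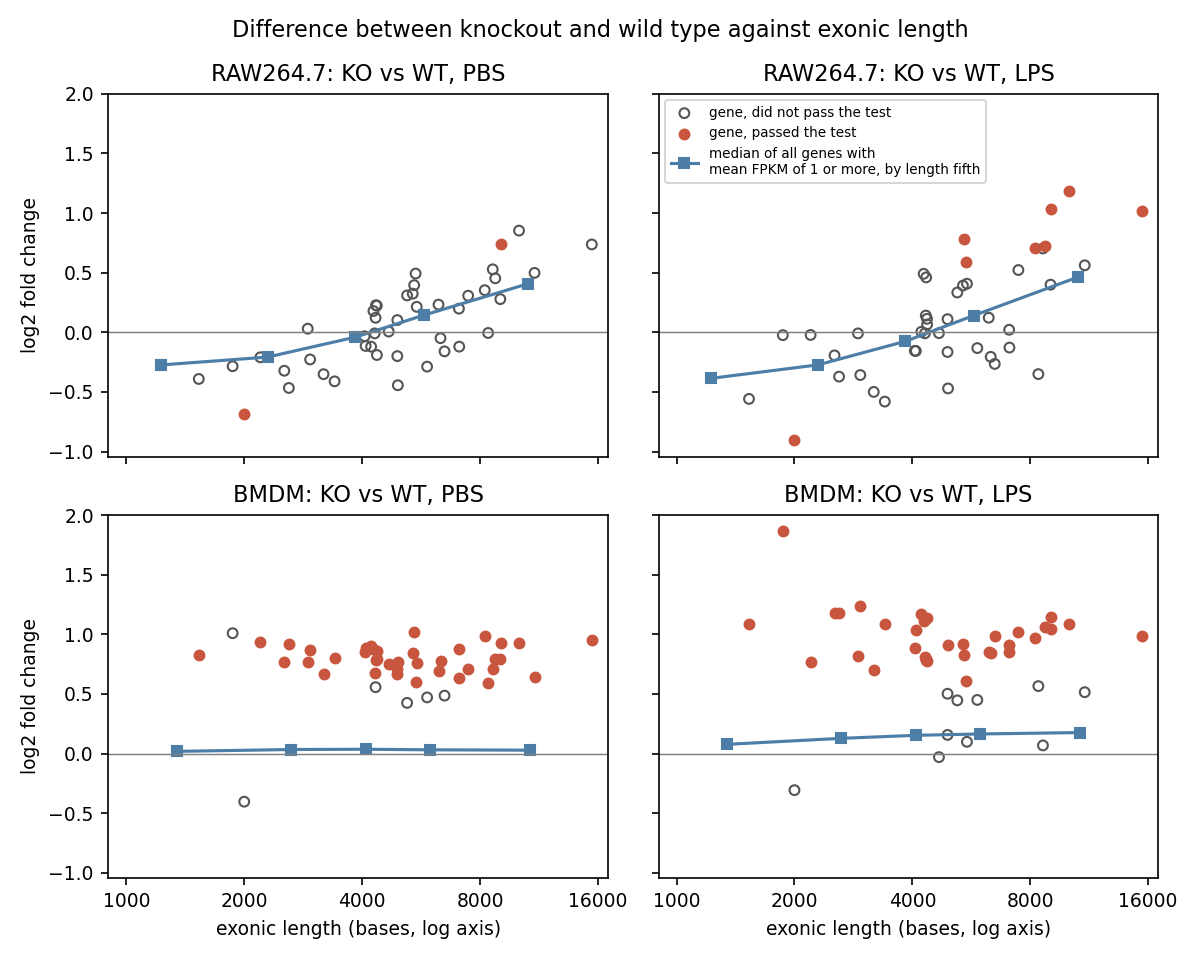
Log2 fold change between knockout and WT (y axis) against exonic length in bases (x axis, log scale) for each of the 44 genes, by cell type and treatment. Filled points passed the limma test, open points did not, and squares give the median of the expressed genes in each of 5 length classes. In RAW264.7, where KO stands for the libraries labelled knockout, the points climb with length as the squares do, and in BMDMs they do not.

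The gap between the longest and the shortest length class, as the median log2 difference from the WT mean, was 1.00 and 1.02 in 2 of the 3 libraries labelled knockout under PBS and 0.80 to 0.86 in the 3 under LPS. It was 0.02 in the first library labelled knockout under PBS, which is the library that stood apart, and -0.04 to 0.03 in the 6 WT libraries. In BMDMs it lay between -0.15 and 0.10 in all 12.

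**Figure D5:**
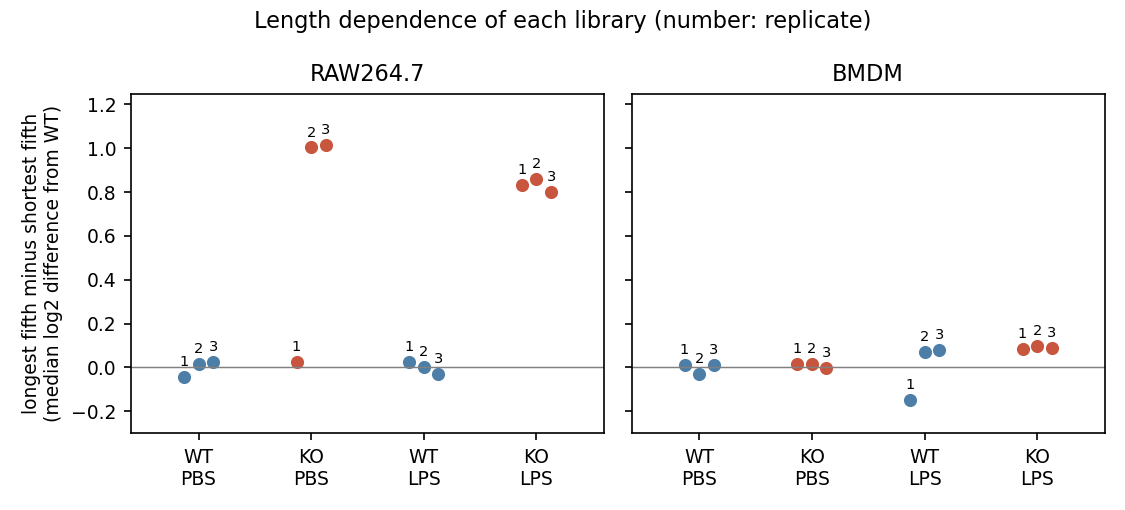
Gap between the longest and the shortest length class of genes (y axis, median log2 difference from the WT mean of the same treatment) in each of 24 libraries by group (x axis), numbered by replicate. In RAW264.7, KO stands for the libraries labelled knockout. Of these, 5 lie at 0.80 to 1.02 and 1 at 0.02.

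When the trend with length was removed from each library, an alternative added after the data were seen, RAW264.7 had 0 of the 44 genes called under PBS by limma, with 4 at an adjusted p under 0.05 but under 1.5-fold. Under LPS 3 were higher (Mki67 at 0.71, Hmmr at 0.67 and Anln at 0.63) and Mad2l1 was lower at -0.71, where 8.72% of all genes were higher and 6.05% lower. In BMDMs the same step gave 38 genes higher under PBS and 33 under LPS, where 0.931% and 3.15% of all genes were.

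LPS lowered 27 of the 44 genes in WT RAW264.7, where 12.5% of all genes and 23.4% of expressed genes fell, and 19 in the libraries labelled knockout, where 14.6% and 27% fell. It raised 0 in either by limma, edgeR or DESeq2 (0 also at an unadjusted limma p under 0.05), where limma called 5.8% and 7.45% of all genes higher. The libraries did not overlap for 43 and 31 genes, where 38.8% and 35.5% of all genes did not overlap. The share among expressed genes is not given here, so no excess is read from these counts. The median log2 fold changes were -0.70 and -0.52, against -0.21 and -0.23 over the expressed genes. The largest falls in WT were those of Ncapd2 (condensin, -1.13 ± 0.087), Nusap1 (a spindle microtubule binder, -1.07 ± 0.065), Mad2l1 (checkpoint, -1.01 ± 0.093) and Ncaph (-0.96 ± 0.074). In the libraries labelled knockout they were Mad2l1 (-1.36 ± 0.093), Ncapd2 (-1.24 ± 0.087), Nusap1 (-1.19 ± 0.065) and Birc5 (survivin, -1.11 ± 0.13).

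Aurkb in RAW264.7 fell from 60.65, 64.47 and 61.95 FPKM to 31.13, 34.35 and 30.87 FPKM in WT and from 59.94, 50.45 and 49.88 FPKM to 26.22, 23.21 and 25.69 FPKM in the libraries labelled knockout. These did not overlap. Ccnb1 went from 57.14, 58.25 and 57.75 FPKM to 49.70, 52.11 and 48.31 FPKM in WT and was not called. The count depends on the scaling. edgeR, which moved the split of all called genes in WT from 1552 higher and 3347 lower to 1994 (14.6%) and 2258 (16.6%), called 12 of the 44 lower. In the libraries labelled knockout it moved the split from 1993 and 3906 to 2406 (17.6%) and 2769 (20.3%) and called 13 lower. DESeq2 called 12 lower in each, where 12.4% and 14.6% of its genes fell and 12.5% and 15% rose. Of 36 other DNA replication genes, LPS lowered 35 in WT RAW264.7 and 36 in the libraries labelled knockout.

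The interaction called 0 of the 44 genes in RAW264.7 by limma, edgeR or DESeq2, with 3 at an unadjusted limma p under 0.05, where limma called 1.95% of all genes, 0.905% higher and 1.04% lower.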

How the data were processed

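RNA was sequenced from 12 RAW264.7 and 12 BMDM libraries, 3 per group, after oligo(dT) selection of poly(A) RNA and fragmentation. The authors deposited, for each cell type, 1 table with read counts per gene and FPKM values, which the authors had computed from those counts, and FPKM recomputed from counts and exonic length lay within 1% of the deposited FPKM for 99.9% (RAW264.7) and 99.5% (BMDM) of values above 50 counts. The submitters' processing notes name mm10, but positions in the tables differ from GRCm38, so no table coordinates are given. The aligner, the counter and its strand setting were not given in any source used. Groups came from the titles.

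FPKM values were tested with limma (3.58.1, R 4.3.3) on log2(FPKM + 0.1) for genes above 0 in at least 1 library, with 1 fit per cell type over 12 libraries (26740 and 26973 genes), Benjamini-Hochberg adjustment, an adjusted p under 0.05 and a fold of at least 1.5. The pseudocount makes fold changes understate the change of low genes. Shares of genes without overlap are over all genes tested, low ones included, unless expressed genes are named. Where both are given, the share was larger among expressed genes. Alternatives were a pseudocount of 1, a minimum of 1 FPKM in 3 libraries, TPM, median-ratio scaling, edgeR (4.0.16) and DESeq2 (1.42.0) on the deposited counts, the compared groups alone, a replicate block, adjusted p alone and leaving out each library. The fits were tested on simulated counts in which chosen genes were changed in the knockout PBS group. The simulation held no trend with exonic length and no shift of most genes, so it does not test the fits against these. Counts per gene among the 44 were 316 to 25847 in RAW264.7 and 1 to 11130 in BMDMs, so BMDM values under LPS are the least precise. The members and lists were chosen with earlier results of these data known.

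Genes are named by rule. For each of 7 roles 1 representative is given (Mki67, Ccnb1, Cenpe, Bub1b, Aurkb, Kif11, Anln). Each comparison gives the 4 called genes with the largest rise and the 4 with the largest fall, each interaction the 3 largest each way, and each other list at most 2. Genes called in both cell types are also named. All others, such as those with overlapping neighbours, were chosen after their values were seen.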

Additional observations from a re-analysis of the deposited data

Results flagged for a closer look

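The response of BMDMs to LPS differed between the genotypes for 3 genes, by a test of the difference itself (the limma interaction term), where 2.93% of all genes passed and 1.02% in this direction. The log2 response of Tpx2 was lower in the knockout by -0.78, that of Kif4 by -0.66 and that of Cenpe by -0.64. edgeR also called 3 others of the 44 genes in the opposite direction, Espl1 at 1.27, Cenpf at 0.63 and Ndc80 at 0.61. For Tpx2, Kif4 and Cenpe the knockout stood above WT under PBS and the genotypes overlapped under LPS. The counts of Pdzd11, which overlaps Kif4 on the other strand, were 156% of those of Kif4.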

How the results depend on the processing

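The number of the 44 genes called moved by more than 1.5 times as follows. The BMDM interaction (3) became 6 with edgeR, 6 with DESeq2, 5 by adjusted p alone and 1 with a pseudocount of 1, and BMDM knockout against WT under LPS (34) became 13 with a pseudocount of 1. RAW264.7 on LPS gave 12 (edgeR), 12 (DESeq2) and 11 (median-ratio scaling) in WT against 27, and 12 (DESeq2) and 30 (adjusted p alone) in the libraries labelled knockout against 19. Those libraries against WT under LPS (8) gave 16 with TPM, 21 by adjusted p alone and 4 with the length trend removed. Under PBS (2) they gave 4 with edgeR and DESeq2, 1 with TPM, 0 with the compared groups alone, 0 with the length trend removed, 4 with it removed and the first library left out, and 1 with a replicate block. Leaving out 1 library gave 31 to 37 and 32 to 36 genes for BMDM knockout against WT under PBS and LPS, 42 and 44 on LPS, and 2 to 4 for the interaction. In RAW264.7 it gave 0 to 11 (11 without the first library labelled knockout) and 4 to 8 by genotype, and 25 to 27 and 17 to 24 on LPS. Calls over all genes moved with the setting as well. In RAW264.7 by genotype under LPS they went from 4635 to 3054 with a pseudocount of 1. The counts above are of the 44 genes alone and do not show a shift particular to them. The cause of these shifts was not tested.

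With a pseudocount of 1 the mean log2 level of the 44 genes was 2.96, 3.63, 1.21 and 1.66 in BMDMs (WT PBS, knockout PBS, WT LPS, knockout LPS), and 5.19, 5.25, 4.58 and 4.69 in RAW264.7. With median-ratio scaling it was 2.48, 3.19, 0.43 and 1.14 in BMDMs and 5.03, 5.09, 4.61 and 4.75 in RAW264.7, in the same order of 4 groups throughout. The 36 log2 fold changes named as the largest called rises and falls had 597 alternative values. Of these, 563 stayed on their side of the threshold, 34 no longer passed and 0 reversed. Values named for other reasons are not in that count, and the LPS changes of Tpx2 and Kif4 in WT BMDMs turned sign with edgeR. Of 776 alternative counts for other lists, 714 stayed within 1.5 times. Same-numbered libraries did not deviate together (r from -0.058 to 0.084), so no pairing by number was seen. With 3 libraries per group this does not exclude a pairing. The replicate block changed 5 calls among the 44 genes.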
